A study of Mus musculus with 26 samples.

Results

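The levels of 10 genes of the Notch pathway were followed through 6 groups of sorted mouse reproductive tract cells: 3 receptors (Notch1, Notch2 and Notch3), 3 ligands (Jag1, Jag2 and Dll1) and 4 target genes (Hes1, Hey1, Hey2 and Heyl). They were picked by name, as the rows of these 10 genes among the 41442 gene rows of each count table, and all 10 had enough counts to be tested in both tables. The fetal cells came from mesonephroi, the embryonic tissue around the Wolffian and Müllerian ducts, of XX and XY embryos collected at E14.5 or at E16.5, counted in embryonic days. These embryos carried Gli1-CreER, a recombinase that tamoxifen activates in cells with Gli1 promoter activity, and Rosa-Tomato, a red reporter that recombination switches on permanently. The uterine cells came from neonatal females, labelled as E19.5, either with Gli1-CreER; Rosa-Tomato (Gli1+ cells) or with Amhr2-Cre; Rosa-Tomato, in which Cre follows the promoter of the anti-Müllerian hormone receptor gene (Amhr2+ cells). Per the labels, dams of either line were given 1 mg of tamoxifen on E12.5 and again on E13.5, and tissue was dissociated with TrypLE before sorting. So Gli1+ cells are those, and the descendants of those, in which Gli1-CreER was active around the injections, and a library holds whatever cell types that label reached. Each group had 3 RNA-seq libraries, 18 in all, and 8 ATAC-seq samples of the fetal groups (sequencing of open chromatin) were merged by the authors into a single list of 71040 peaks.

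Notch proteins are receptors on the cell surface that are activated by ligands of the Jagged and Delta families on a neighbouring cell. Ligand binding leads to cleavage of the receptor by ADAM proteases and gamma-secretase, and the freed intracellular domain enters the nucleus. There it joins the DNA-binding protein RBPJ and Mastermind-like coactivators and switches on target genes, of which the Hes and Hey families of transcriptional repressors are the best known. Fringe enzymes add sugars to the receptors and change which ligands they answer to. In mesenchyme and vessel walls Notch3, Jag1 and Heyl are well known from pericytes and smooth muscle cells, and Hes1 is also induced by signals other than Notch.

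The promoters below show the DNA at the start of the receptor gene with the strongest sex difference (Notch1), the receptor gene with the widest uterine difference (Notch3) and the target gene whose window holds matches to the RBPJ site (Hey2). Each runs 5′ to 3′ on the gene's strand from 250 bases before to 50 bases from the start site, is on the minus strand and comes from RefSeq on GRCm38.p6, and capitals mark the letters TGGGAA or their reverse complement TTCCCA, the core of the site bound by RBPJ.
Notch1, chr2:26503773-26504072: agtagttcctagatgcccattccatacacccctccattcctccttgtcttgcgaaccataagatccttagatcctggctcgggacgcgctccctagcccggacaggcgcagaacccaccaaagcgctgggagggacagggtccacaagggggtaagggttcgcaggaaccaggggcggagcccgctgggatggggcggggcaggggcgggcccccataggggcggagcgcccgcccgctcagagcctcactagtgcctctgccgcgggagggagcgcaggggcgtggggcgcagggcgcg
Notch3, chr17:32166841-32167140: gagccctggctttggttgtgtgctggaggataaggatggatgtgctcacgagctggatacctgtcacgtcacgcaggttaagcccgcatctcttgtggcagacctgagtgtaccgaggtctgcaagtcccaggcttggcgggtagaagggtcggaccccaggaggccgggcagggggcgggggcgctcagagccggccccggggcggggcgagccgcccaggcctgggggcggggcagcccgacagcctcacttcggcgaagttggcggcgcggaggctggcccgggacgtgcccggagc
Hey2, chr10:30842734-30843033: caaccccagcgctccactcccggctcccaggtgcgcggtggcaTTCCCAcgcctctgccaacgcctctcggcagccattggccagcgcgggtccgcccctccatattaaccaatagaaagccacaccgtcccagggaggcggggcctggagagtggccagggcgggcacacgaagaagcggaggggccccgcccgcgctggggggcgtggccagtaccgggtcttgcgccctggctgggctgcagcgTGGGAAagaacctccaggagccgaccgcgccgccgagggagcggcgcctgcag
RefSeq windows were matched for 7 of the 10 genes (8 windows, since Dll1 has 2); Hes1, Hey1 and Heyl had none. Of these 8 windows only that of Hey2 held the core letters, searched on both strands without overlap between the copies, against 25.6% of 32851 windows in the table. Hey2 had 2 copies, the first beginning 207 bases before the start site on the opposite strand and the second 3 bases before it on the gene's strand; 2 or more copies occurred in 3.79% of all windows. Both copies also matched the longer form GTGGGAA (or TTCCCAC), which 6.38% of windows held at least once and 0.256% held in 2 or more copies. A peak covered all 300 bases of the Hey2 window, 279 of the Notch1 window and 175 of the Notch3 window. These are matches of letters and say nothing about binding.

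Fetal libraries held between 23382983 and 64602477 counts and uterine libraries between 28709191 and 37541045. Col1a1 and Pdgfra, genes of the labelled mesenchyme, were abundant in every library. Col1a1 was at 10644 to 23998 CPM, counts per 1000000 of the TMM-scaled library size, and Pdgfra at 519 to 1289 CPM. Amhr2, grouped with these genes, was far lower. Fetal libraries held at most 32.1 CPM of Amhr2 (lowest 1.47 CPM), and uterine libraries at most 15.8 CPM (lowest 3.35 CPM). Gli1 itself was at 184 to 246 CPM in both E14.5 groups and at 194 to 220 CPM in XY at E16.5, but at 48.5 to 54.0 CPM in XX at E16.5 and 7.53 to 21.2 CPM in the uterine libraries. Among markers of other cells, the endothelial list was led by Emcn (up to 68.0 CPM) and Kdr (up to 61.9 CPM) with Cldn5 at most 0.652 and Pecam1 at most 2.32 CPM, the epithelial list by Krt18 (up to 26.6 CPM) with Epcam at most 8.37 CPM, and the neural list by Stmn2 (up to 25.5 CPM) with Sox10 at most 0.181 CPM. The immune list was led by Cd68 (up to 77.9 CPM), with Ptprc at most 0.985, Tyrobp at most 1.72 and Csf1r at most 10.9 CPM. A list of gonad somatic cells was led by Foxl2, up to 53.9 CPM in fetal and 118 CPM in uterine libraries. Of the same list, Sox9 was at most 10.5, Amh at most 3.40 and Cyp11a1 at most 0.216 CPM. Replicate 3 of XX at E14.5 stood apart in erythroid genes, with a sum of 975 CPM against 5.52 to 52.7 CPM in the other fetal libraries, and without it no call of the 10 genes was gained or lost. In bulk libraries like these, fewer cells of a type and less RNA per cell cannot be told apart.

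Per kb of exon, Hes1, Notch3 and Notch2 were the most abundant of the 10 transcripts in all 6 groups, and the Delta-type ligand Dll1 was the least abundant. Compared per kb of exon, with CPM divided by exon length in kb (RPKM) as the level, Hes1 had the highest mean in 5 of 6 groups, from 26.1 RPKM in uterine Amhr2+ cells to 106 RPKM in XY at E14.5. Notch3 came next with 25.6 to 46.0 RPKM in those 5 groups, and was highest, at 41.1 RPKM, in uterine Gli1+ cells, where Hes1 had 24.0 RPKM. The lead of Hes1 over Notch3 did not exceed the spread of libraries in XX and XY at E16.5 and in Amhr2+ cells, nor did that of Notch3 over Hes1 in Gli1+ cells. Notch2 followed with 15.6 to 41.3 RPKM, then Jag1 with 7.20 to 18.5 RPKM. By exon length Notch1 (4.20 to 7.45 RPKM over the 6 groups) was above Heyl (3.57 to 9.06 RPKM) in both XX groups and in Amhr2+ cells, and Heyl was above Notch1 in both XY groups and in Gli1+ cells, with no overlap of libraries in any of the 6. In Gli1+ cells Heyl also had a higher mean than Jag1 (8.41 RPKM), with overlapping libraries. Hey1, Hey2 and Jag2 stayed between 0.482 and 1.41 RPKM, and Hey1 and Hey2 overlapped in every group other than XX at E16.5. Dll1 was lowest in every group, at 0.156 to 0.273 RPKM, resting on 15 to 78 counts per library.

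The order depends on the length used. With coding length in place of exon length Hes1 was highest in all 6 groups, Heyl was above Jag1 and Notch1 in all of them (32.9 against 12.7 RPKM for Notch1 in XX at E14.5), so that Heyl and Notch1 no longer changed places. Heyl was then also above Notch2 in XY at E16.5 and in Gli1+ cells, and Notch2 moved above Notch3 in both E14.5 groups and in XY at E16.5.

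**Figure D1:**
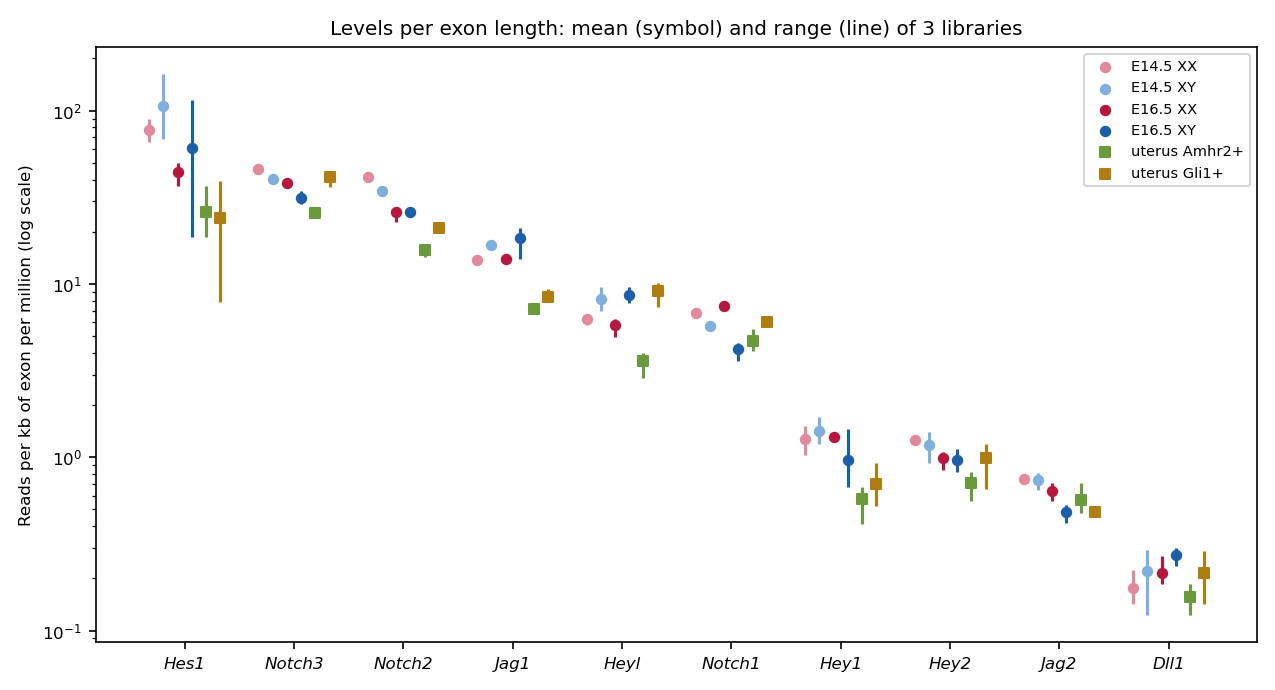
CPM per kb of exon (RPKM, log axis) for the 10 genes, ordered by mean level; symbols are group means and lines the range of 3 libraries, in the 4 fetal groups (circles) and 2 uterine groups (squares). Hes1, Notch3 and Notch2 sit on top and Dll1 at the bottom in every group, and the Hes1 line is longest in XY at E16.5, from 18.6 to 116 RPKM.

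In the comparison of XX with XY at E14.5, none of the 10 genes passed an adjusted p of 0.05 by edgeR's quasi-likelihood test, while 6.28% of 17858 tested genes did. Unadjusted, 5 had p under 0.05, and DESeq2 called 3. An edgeR fit with a term for the replicate number called Notch1 and Notch2 (adjusted p = 0.0312 and 0.0257). The 3 libraries of each sex did not overlap for 5 of 10 genes (27.2% of all tested genes): Notch1, Notch2 and Notch3 had higher values in XX, Jag1 and Heyl in XY. At E16.5 the same test called 5 of 10, against 27.3% of all tested genes: Notch1, Notch3 and Jag2 were higher in XX (13.2% of all genes) and Jag1 and Heyl higher in XY (14.1%). For 4 of these 5, all but Jag1, the sexes did not overlap (38.3% of all genes). From E14.5 to E16.5, XX cells had 2 of 10 called, both lower at E16.5 (39.6% of all genes were called, 18.6% lower), and XY cells had 4 of 10, all lower (23.3% called, 10.2% lower). The ages did not overlap for 6 of 10 genes in XX (56.6% of all) and for 4 of 10 in XY (34.9% of all). A test of whether the sex difference was equal at both ages called 1 of 10 genes, Notch1, as shifted towards XX, against 4.66% of all tested genes shifted that way and 5.36% shifted towards XY. In the uterus 4 of 10 were called, all lower in Amhr2+ than in Gli1+ cells (23.9% of 16195 tested genes called, 13.7% lower), and the libraries did not overlap for 5 of 10 (44.4% of all). The median log2 fold change of the 10 genes was -0.06 at E14.5 and 0.02 at E16.5 for XX against XY, -0.17 for age in XX, -0.39 for age in XY and -0.39 for Amhr2+ against Gli1+, with medians over all tested genes between -0.01 and 0.01. Without XY replicate 1 the E14.5 count was 2 (Notch2 and Heyl), without XX replicate 2 the E16.5 count was 3 (Notch1, Notch3 and Heyl), and without E16.5 XY replicate 1 or 3 the test of equal sex differences called 2. Fitted on the 6 libraries of the 2 groups alone, 3 genes were called at E14.5, 3 at E16.5 and 5 for age in XX. The 4 fetal comparisons share libraries in pairs, so their calls are not separate observations.

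**Figure D2:**
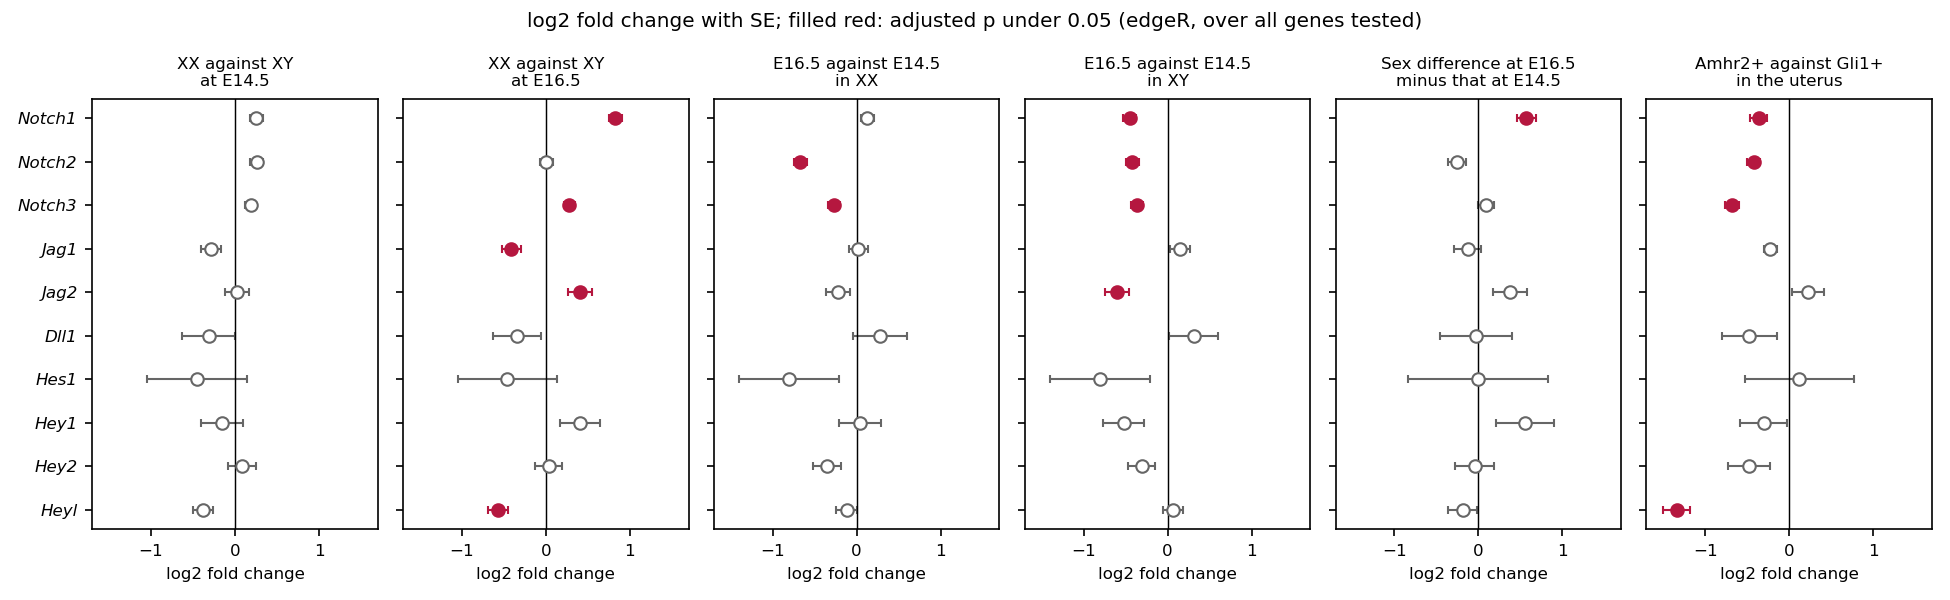
log2 fold change with its standard error for the 10 genes in 6 comparisons; filled red points have an adjusted p under 0.05 over all genes tested. Notch1 is to the right at E16.5, 3 receptors lie to the left with age in XY and in the uterus, and Heyl is to the left in the uterus at -1.34.

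Notch1 (Entrez gene 18128, chr2:26457903-26503822 on mm10, minus strand), a receptor with broad roles in cell fate choice, had the clearest sex difference. In XX it was at 99.2, 95.4 and 97.3 CPM at E14.5 and at 105, 105 and 108 CPM at E16.5, and in XY at 82.2, 78.7 and 83.8 CPM at E14.5 and at 50.9, 63.8 and 64.8 CPM at E16.5. Every XX library exceeded every XY library of its age. The gap was wider at E16.5, where XY libraries were lower and XX libraries slightly higher than at E14.5. The XX to XY difference was 0.25 log2 (SE 0.0775, adjusted p = 0.0673) at E14.5, where DESeq2 called it (adjusted p = 0.0291), and 0.83 log2 (SE 0.0777, adjusted p = 9.23e-07), or 1.77-fold, at E16.5. The change of this difference between the ages was 0.57 log2 (SE 0.109, adjusted p = 0.0028). Within XY, Notch1 fell by 0.45 on the log2 scale with age (adjusted p = 0.000528), and within XX the difference of 0.12 log2 did not pass (adjusted p = 0.219). In XX the ages did not overlap, and this difference passed when edgeR was fitted on the 6 XX libraries alone (adjusted p = 0.0371). In the uterus the Amhr2+ libraries had 65.0, 58.2 and 78.0 CPM and the Gli1+ libraries 87.2, 81.0 and 90.4 CPM. These groups did not overlap, and Notch1 was lower in Amhr2+ cells by edgeR (log2 fold change -0.36, SE 0.105, adjusted p = 0.0369). That uterine call was lost without Amhr2+ replicate 1 or 2 or Gli1+ replicate 1 or 3 (adjusted p of 0.134, 0.105, 0.102 and 0.0911) and with library size as the only scaling (adjusted p = 0.0701).

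Notch2 (18129, chr3:98013538-98150361, plus strand), a receptor close to Notch1 in its domains, followed age and not sex at E16.5. In XX it was at 454, 446 and 436 CPM at E14.5 and at 299.5, 294 and 246 CPM at E16.5. In XY it was at 399, 346 and 374 CPM at E14.5 and at 267, 296 and 274 CPM at E16.5. All 6 E16.5 libraries were below all 6 E14.5 libraries, and at E14.5 the XX libraries were above the XY libraries (0.26 log2, adjusted p = 0.065). That E14.5 difference passed without XY replicate 1 (0.31 log2, adjusted p = 0.0308) and by DESeq2 (adjusted p = 0.0239). Notch2 fell by 0.67 on the log2 scale in XX (SE 0.0781, adjusted p = 7.69e-06) and by 0.42 in XY (SE 0.0779, adjusted p = 0.000941). The 2 falls were not shown to differ (difference of -0.25 log2, adjusted p = 0.177), and at E16.5 the sexes differed by 0.01 log2 (SE 0.0778, adjusted p = 0.966). In the uterus Notch2 was at 167, 154 and 184 CPM in Amhr2+ and at 224, 237 and 217 CPM in Gli1+ cells, with no overlap, and was lower in Amhr2+ cells (-0.42 log2, SE 0.0767, adjusted p = 0.00563).

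Notch3 (18131, chr17:32120820-32166880, minus strand) is the receptor best known from vascular smooth muscle and pericytes. It was at 374, 368 and 374 CPM in XX and at 343, 311 and 326 CPM in XY at E14.5, and at 312, 323 and 292 CPM in XX and at 234, 277 and 252 CPM in XY at E16.5. XX libraries were above XY libraries at each age. The difference passed at E16.5 (0.28 log2, SE 0.0687, adjusted p = 0.00621) and not at E14.5 (0.19 log2, adjusted p = 0.14), and the 2 differences were not shown to be unequal (0.09 log2, adjusted p = 0.615). Notch3 fell with age by 0.27 on the log2 scale in XX (adjusted p = 0.00632) and by 0.36 in XY (adjusted p = 0.00115). In the uterus it was at 215, 201 and 206 CPM in Amhr2+ and at 353, 350.0 and 295 CPM in Gli1+ cells. The gap of 0.68 log2 units (SE 0.0801, adjusted p = 0.000677), or 1.60-fold, was the widest of the 3 receptors, and every Gli1+ library was above every Amhr2+ library.

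**Figure D3:**
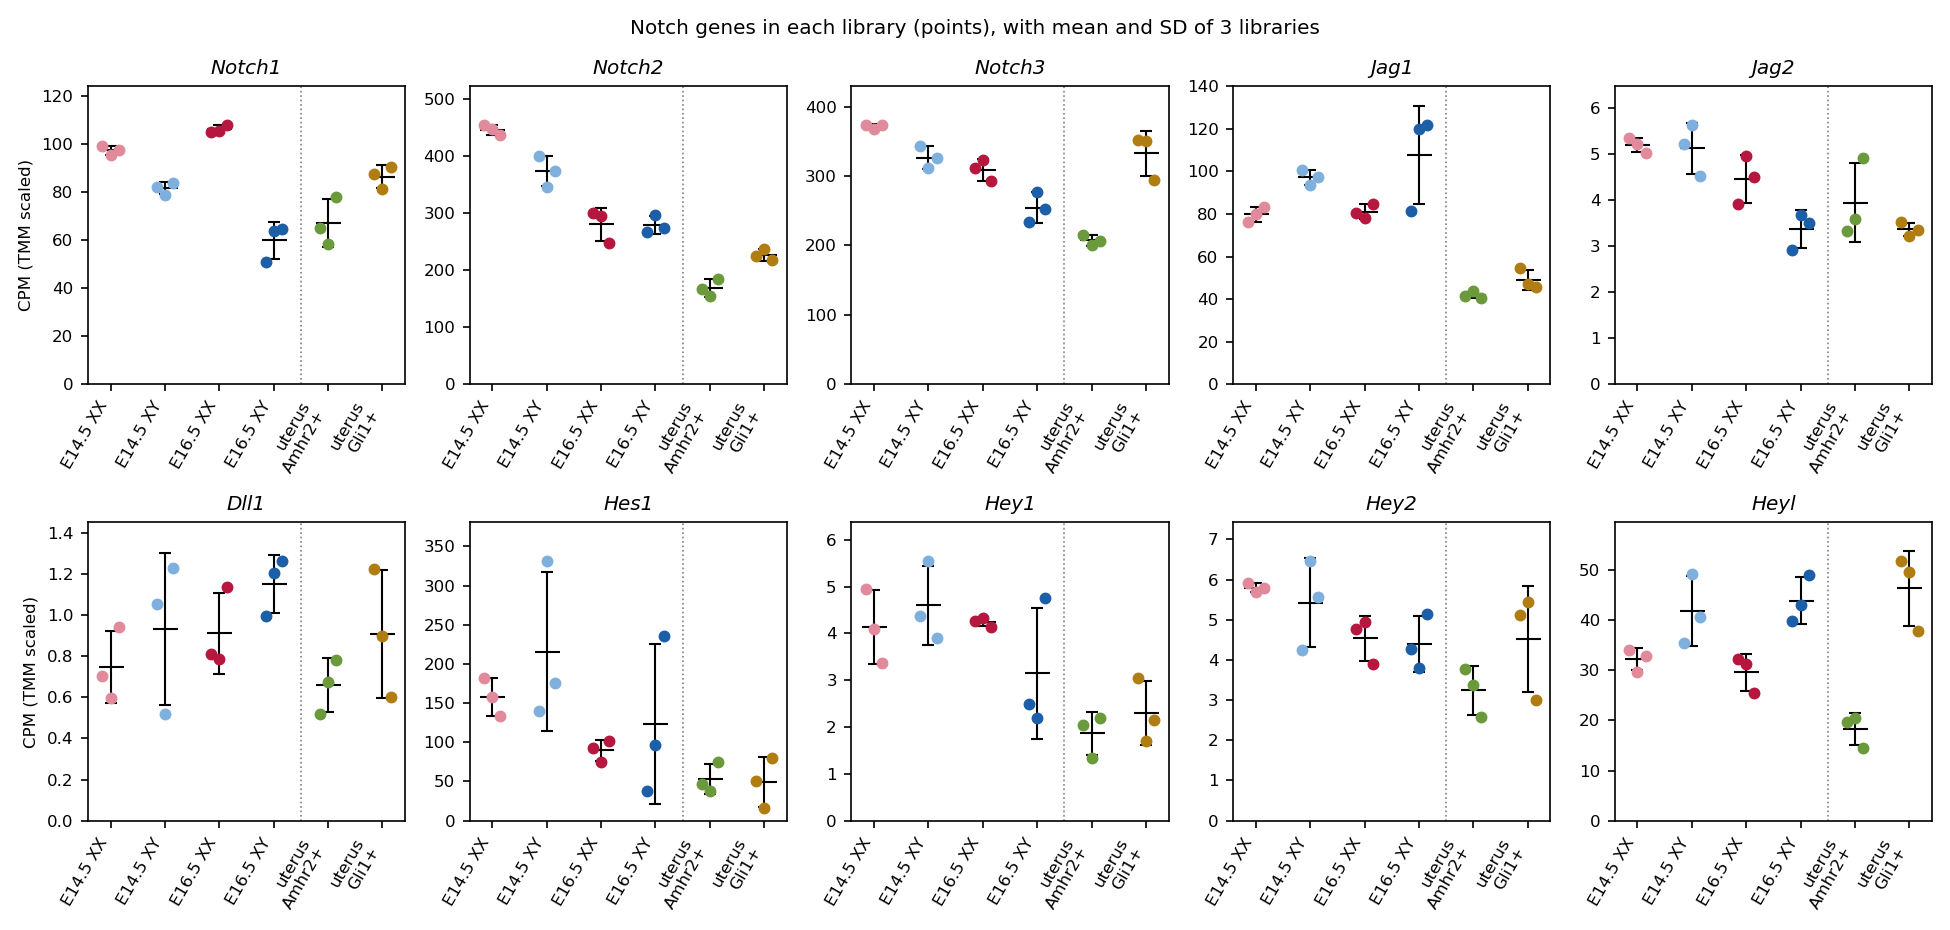
CPM of each of the 10 genes in every library (points), with the mean and SD of 3 libraries, in 4 fetal groups and, right of the dotted line, 2 uterine groups; the axes start at 0 and differ between genes. Receptor libraries of a group lie close together, with a CV of at most 15.02% (Notch1 in Amhr2+ cells), Jag1 is wider in XY at E16.5 (CV 21.3%), and Hes1 spreads from 37.9 to 236 CPM within XY at E16.5.

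Among the ligands, Jag1 (16449, chr2:137081456-137116644, minus strand) was the abundant one. Between the sexes it leaned opposite to Notch1 and Notch3 at both ages, and opposite to Notch2 at E14.5 only. It was at 76.3, 79.9 and 83.4 CPM in XX and at 101, 93.5 and 97.4 CPM in XY at E14.5, without overlap. At E16.5 it was at 80.4, 78.0 and 84.9 CPM in XX and at 81.2, 120.0 and 122 CPM in XY. Replicate 1 of XY lay among the XX libraries and the other two were above them. Jag1 was lower in XX at E16.5 by 0.41 log2 units (SE 0.115, adjusted p = 0.0163), but the call was lost without XX replicate 2 (adjusted p = 0.0562), XY replicate 2 (0.0739) or XY replicate 3 (0.0672), and when the 6 E16.5 libraries were fitted alone (0.0681). At E14.5 the difference was -0.28 log2 (adjusted p = 0.201), and with age Jag1 differed by 0.02 log2 in XX (adjusted p = 0.904) and by 0.15 in XY (adjusted p = 0.392). Without XY replicate 1 of E16.5, Jag1 passed as higher at E16.5 in XY (0.32 log2, adjusted p = 0.00178) and its sex difference passed as changed between the ages (-0.29 log2, adjusted p = 0.0298). In the uterus Amhr2+ cells had 41.6, 43.6 and 40.7 CPM and Gli1+ cells 54.5, 47.0 and 45.5 CPM, without overlap, and the difference of -0.22 log2 did not pass (adjusted p = 0.081).

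Jag2 (16450, chr12:112907819-112929776, minus strand), the second Jagged ligand, was low throughout. At E14.5 it was at 5.34, 5.22 and 5.03 CPM in XX and at 5.22, 5.63 and 4.53 CPM in XY, and at E16.5 at 3.92, 4.95 and 4.50 CPM in XX and at 2.91, 3.69 and 3.51 CPM in XY. The sexes overlapped at E14.5 and were apart at E16.5, with XY lowest. Jag2 fell with age in XY by 0.60 on the log2 scale (SE 0.141, adjusted p = 0.00547), while the difference of -0.22 log2 in XX did not pass (adjusted p = 0.229). At E16.5 it was 0.40 log2 units higher in XX (SE 0.141, adjusted p = 0.045). This narrow call was lost without the filter on low counts (adjusted p = 0.0827), in the 6 libraries alone (0.115), and without XX replicate 2 (0.201), XX replicate 3 (0.0909), XY replicate 1 (0.124) or XY replicate 3 (0.0821). Uterine Jag2 was between 3.22 and 4.92 CPM with no call (adjusted p = 0.42).

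Dll1 (13388, chr17:15367354-15375976, minus strand), a Delta-type ligand, was near the limit of what these libraries measure. It ranged from 0.516 to 1.26 CPM in fetal and from 0.519 to 1.22 CPM in uterine libraries, and no comparison passed. The standard errors of its log2 fold changes, 0.287 to 0.329 in the 5 comparisons of 2 groups, mean that a moderate difference was not detectable at this depth.

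Heyl (56198, chr4:123233556-123249875, plus strand), a Hey-family repressor known from smooth muscle, was the target gene that differed between groups. It was at 33.9, 29.7 and 32.8 CPM in XX and at 35.5, 49.3 and 40.6 CPM in XY at E14.5, and at 32.3, 31.2 and 25.4 CPM in XX and at 39.7, 42.9 and 49.1 CPM in XY at E16.5. XY libraries were above XX libraries at both ages. The XX to XY difference passed at E16.5 (-0.57 log2, SE 0.119, adjusted p = 0.00232) and not at E14.5 (-0.38 log2, SE 0.121, adjusted p = 0.0818), where it passed without XY replicate 1 (-0.48 log2, adjusted p = 0.0221) and by DESeq2 (adjusted p = 0.0466). The change between the ages was -0.19 log2 (adjusted p = 0.555). In the uterus Heyl was at 19.7, 20.4 and 14.6 CPM in Amhr2+ and at 51.7, 49.5 and 37.8 CPM in Gli1+ cells. This was the largest difference of any of the 10 genes in any of the 6 comparisons: 2.53-fold lower in Amhr2+ cells (-1.34 log2, SE 0.159, adjusted p = 0.000906), with every Gli1+ library above every Amhr2+ library.

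The summed level of smooth muscle and pericyte markers differed in the same direction as Heyl between the sexes and between the uterine groups. It did not do so with age. The sum was higher at E16.5 in either sex, and Heyl passed in neither (-0.12 log2, adjusted p = 0.461 in XX and 0.07 log2, adjusted p = 0.722 in XY, by edgeR). The summed level of a list of 10 such genes was 468 to 494.5 CPM in XX and 776 to 1062 CPM in XY at E14.5, and 691 to 776 CPM in XX and 1956 to 3162 CPM in XY at E16.5. In the uterus it was 1401 to 2227 CPM in Amhr2+ and 2586 to 2673 CPM in Gli1+ libraries. Acta2 (smooth muscle actin) took the largest part, from 160.3 to 177 CPM in XX at E14.5 up to 1245 to 2245 CPM in XY at E16.5, and none of the 10 markers was at 0 in any library. Single markers need not follow the sum. Over all uterine libraries Des stayed at 181 to 203 CPM and Cspg4 at 98.8 to 105 CPM, and the direction of each marker was not tested. Between the fetal sexes Notch3 went the other way, higher in XX, and in the uterus it was higher in Gli1+ cells along with the sum. Other lists also separated the fetal sexes without overlap. The epithelial sum was higher in XY, at 52.8 to 62.0 against 36.3 to 41.6 CPM at E14.5 and 37.4 to 47.7 against 25.7 to 37.1 CPM at E16.5. At E16.5 the endothelial sum (86.9 to 96.4 against 72.2 to 85.1 CPM) and the gonad somatic sum (57.3 to 60.8 against 36.7 to 44.3 CPM) were also higher in XY. The erythroid sum was higher in XX at E16.5 (27.9 to 52.7 against 13.8 to 18.2 CPM). More lists separated the uterine groups without overlap. The summed endothelial markers were 36.7 to 42.0 CPM in Amhr2+ and 47.3 to 56.8 CPM in Gli1+ libraries. The epithelial ones were 76.4 to 78.1 and 34.9 to 48.5 CPM, and the gonad somatic ones 71.3 to 119 and 61.9 to 65.1 CPM. The erythroid ones were 1.56 to 2.28 and 7.21 to 8.11 CPM, and those of the labelled mesenchyme 20648 to 22465 and 37696 to 41608 CPM. The last sum was mostly collagen, with Col1a1 at 10644 to 22808 and Col3a1 at 8817 to 17376 CPM over the uterine libraries. Pdgfra, of the same list, was at 519 to 621 CPM over these libraries. The part of these cells in the differences of Heyl and of the 3 receptors was not tested.

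Hes1 (15205, chr16:30065340-30067796, plus strand), a repressor with short-lived RNA, varied widely within the XY and uterine groups (CV of 36.3% to 82.5%). It varied less within the XX groups (CV of 15.3% at E14.5 and 15.1% at E16.5). Hes1 was at 182, 158 and 134 CPM in XX and at 140.3, 331 and 176 CPM in XY at E14.5, and at 93.3, 75.1 and 102 CPM in XX and at 37.9, 96.2 and 236 CPM in XY at E16.5. In the uterus it was at 46.5, 38.1 and 75.0 CPM in Amhr2+ and at 50.9, 15.97 and 79.7 CPM in Gli1+ cells. Libraries of 1 group thus spanned 37.9 to 236 CPM, and the groups overlapped in every comparison other than age in XX. No comparison of Hes1 passed: the XX to XY difference was -0.46 log2 (SE 0.592, adjusted p = 0.634) at E16.5, and it became 0.41 log2 (adjusted p = 0.621) without XY replicate 3. In XX all 3 E16.5 libraries were below all 3 E14.5 libraries (-0.81 log2, SE 0.596, adjusted p = 0.319). That decrease passed when the 6 XX libraries were fitted alone (adjusted p = 0.00758), where the wide XY libraries did not enter the estimate of spread.

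Within groups, the spread of Hes1 went along with early-response genes. In a list of 10 genes known to respond to tissue dissociation (Fos, Fosb, Jun, Junb, Egr1, Atf3, Ier2, Dusp1, Hspa1a and Hspa1b), the summed level in XY at E16.5 was 3872, 11066 and 18680 CPM for replicates 1 to 3, in which Hes1 was at 37.9, 96.2 and 236 CPM. In uterine Gli1+ cells the sums were 6416, 1261 and 12283 CPM beside Hes1 at 50.9, 15.97 and 79.7 CPM. The library with the most Hes1 was also the highest in this list in 6 of 6 groups, and the order of all 3 libraries was the same in 5 of 6, the exception being XX at E14.5. The comparison within groups was chosen after the values were seen, and how often other genes show the same order was not tested. Between the ages in XX, Hes1 and the sum went opposite ways without overlap. The sum was 8676 to 9654 CPM at E14.5 and 10141.5 to 17027 CPM at E16.5. Hes1 was at 134 to 182 CPM and at 75.1 to 102 CPM. In XY the ages overlapped for the sum and for Hes1. The part of dissociation in the Hes1 values was not tested.

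**Figure D4:**
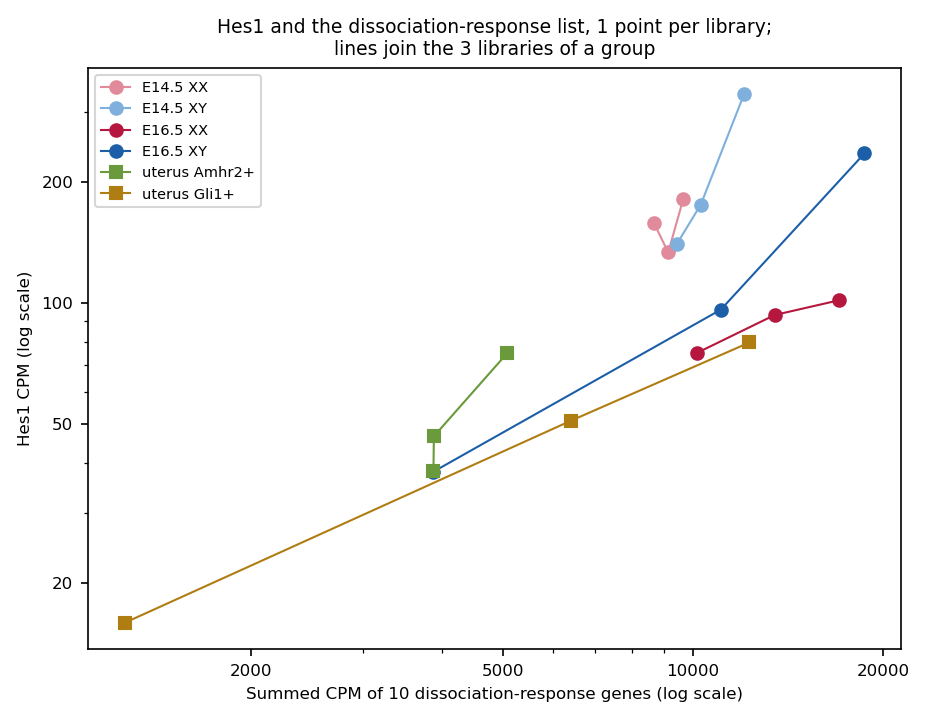
Hes1 CPM (log axis) against the summed CPM of 10 dissociation-response genes (log axis), 1 point per library, with lines joining the 3 libraries of a group. Lines climb from lower left to upper right in 5 of 6 groups, and the E14.5 libraries, from 134 CPM up, lie above those of E16.5 XX, at 75.1 to 102 CPM.

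Hey1 and Hey2, repressors well known from heart and vessel development, were low. Hey1 (15213, chr3:8663359-8667256, minus strand) was at 4.94, 4.10 and 3.37 CPM in XX and at 4.38, 5.54 and 3.90 CPM in XY at E14.5, and at 4.26, 4.33 and 4.14 CPM in XX and at 2.49, 2.19 and 4.75 CPM in XY at E16.5. The third XY library at E16.5 stood above the other two. No Hey1 comparison passed with it (0.41 log2, adjusted p = 0.247, for XX against XY at E16.5). Without it Hey1 passed as higher in XX at E16.5 (0.84 log2, adjusted p = 0.0056), as lower at E16.5 in XY (-0.96 log2, adjusted p = 0.00243) and as changed in its sex difference between the ages (0.99 log2, adjusted p = 0.0244). It is the library with the highest Hes1 and the highest dissociation-response sum. Uterine Hey1 was between 1.35 and 3.04 CPM, with overlapping groups.

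Hey2 (15214, chr10:30832359-30842801, minus strand), whose promoter holds the 2 RBPJ core matches printed above, was at 5.91, 5.69 and 5.79 CPM in XX at E14.5 and between 3.79 and 6.45 CPM in the other fetal groups. In XX all E16.5 libraries (4.78, 4.95 and 3.89 CPM) were below those of E14.5, by -0.35 log2, which did not pass (adjusted p = 0.1) except when the 6 XX libraries were fitted alone (adjusted p = 0.0385). In the uterus it was at 3.79, 3.37 and 2.58 CPM in Amhr2+ and at 5.12, 5.45 and 3.02 CPM in Gli1+ cells, with an overlap that came from Gli1+ replicate 3. The difference of -0.48 log2 (adjusted p = 0.203) passed without that library (-0.70 log2, adjusted p = 0.0463).

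Of 45 other genes of the pathway, 42 could be tested in the fetal and 41 in the uterine table; Hes2, Hes3 and Hes5 had too few counts in both, and Mfng in the uterine one. Rbpj, the DNA-binding partner of all Notch receptors, was steady, with group means of 59.8 to 66.0 CPM and no call in any comparison. At E14.5 3 of 42 were called, all lower in XX (Dtx4, Numbl and Dner), and at E16.5 14 were called, 8 higher and 6 lower in XX. With age 23 of 42 were called in XX (11 higher, 12 lower) and 12 in XY (7 higher, 5 lower). In the uterus 12 of 41 were called, of which 11 were lower in Amhr2+ cells. Beside the shares of all genes given above (6.28%, 27.3%, 39.6%, 23.3% and 23.9%), these are 7.14%, 33.3%, 54.8%, 28.6% and 29.3%. By direction, 13.2% of all tested genes were higher and 14.1% lower in XX at E16.5. With age 18.6% of all were lower in XX and 10.2% in XY, and in the uterus 13.7% were lower in Amhr2+ cells. Whether the 45 genes lean 1 way as a set was not tested. Leaving out single libraries moved the E14.5 count to between 1 and 6, with Dtx4 called each time: it was 1 without XX replicate 1 or 2 or XY replicate 2 or 3, and 6 without XY replicate 1. The E16.5 count was 8 without XX replicate 1 or XY replicate 3, 7 without XX replicate 2 and 6 without XY replicate 2, and the count for age in XX was 14 or 15 without E14.5 XX replicate 1 or 3 or E16.5 XX replicate 1.

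Dtx4, a Deltex-family E3 ubiquitin ligase that binds Notch, had the largest sex difference of the well-expressed genes of this list. It was at 31.8, 35.0 and 32.7 CPM in XX and at 56.0, 50.9 and 54.7 CPM in XY at E14.5, and at 34.3, 34.5 and 37.2 CPM in XX and at 85.0, 109 and 119 CPM in XY at E16.5. XX stayed level while XY libraries were higher at E16.5. The XX to XY difference was -0.70 log2 (adjusted p = 0.000496) at E14.5 and -1.57 log2 (adjusted p = 1.57e-08) at E16.5, and its change between the ages was -0.87 log2 (SE 0.140, adjusted p = 0.000751), opposite in sign to that of Notch1. In the uterus Dtx4 was lower in Amhr2+ cells (11.9 against 22.9 CPM, -0.94 log2, adjusted p = 0.00194). Dner, a Delta-like protein known from neurons, was rare (0.0980 to 0.148 CPM in XX and 2.49 to 4.88 CPM in XY at E16.5) and is named because few genes passed at E14.5; its counts in XX were 4 to 9 per library. The Dner difference at E14.5 (-1.49 log2, adjusted p = 0.02) was lost without XX replicate 1 or 2 or XY replicate 2 or 3 (adjusted p of 0.101, 0.0827, 0.0553 and 0.105), and that of Numbl (-0.30 log2, adjusted p = 0.0209), an adaptor related to the Notch inhibitor Numb, was lost without any 1 of 5 libraries (adjusted p of 0.0646 to 0.114).

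Regulators of ligand and receptor handling were also among the genes called. Neurl1a, a Neuralized-family ubiquitin ligase acting on ligands, was at 17.4, 17.0 and 16.9 CPM in XX at E16.5 and between 23.3 and 26.4 CPM in the other 3 fetal groups, with no overlap. Its sex difference at E16.5 was -0.52 log2 (adjusted p = 1.74e-05), its fall with age in XX was by 0.49 on the log2 scale (adjusted p = 2.99e-05), and its sex difference changed between the ages by -0.44 log2 (adjusted p = 0.00488). Lfng (lunatic fringe), a glycosyltransferase acting on Notch, had 8.96, 9.43 and 9.27 CPM in XX at E16.5, below all other fetal libraries. Its sex difference at E16.5 (-0.45 log2, adjusted p = 0.0141) was lost without XY replicate 2 (adjusted p = 0.0654). Neurl1b was lower in Amhr2+ than in Gli1+ uterine cells (5.41 against 12.54 CPM, -1.21 log2, adjusted p = 0.00254), as was Dlk1, a Delta-like protein that lacks the receptor-activating domain (405 against 645 CPM, -0.67 log2, adjusted p = 0.00272). Among nuclear genes, Hes6, a Hes relative, rose with age by 0.91 log2 in XX (adjusted p = 2.41e-05) and by 0.77 in XY (adjusted p = 0.000117), and the coactivator Maml3 fell by 0.36 in XX (adjusted p = 0.00598) and by 0.37 in XY (adjusted p = 0.00751).

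Over the 12 fetal libraries the genes whose log2 CPM (prior count 2) followed Notch1 most closely, among 11312 genes with a mean of at least 5 CPM, were Phlpp1 (Pearson r = 0.985), Epha7 (0.970), Sdc2 (0.960), Bcl2l11 (0.960) and Myo16 (0.959). These r values are a description: the libraries form 4 groups that share their sex and age, and no p is given.

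Open chromatin was found at the starts of all 10 genes. Each had at least 1 peak within 1 kb of an annotated start site, as did 89.2% of 14565 tested genes with an annotation, so this sets them little apart. A peak lay on a start site in 7 of 10 (81.3% of all); Jag1, Jag2 and Dll1, the ligands, had their nearest peak beside it. The peak nearest the start was wide for Hey1 (chr3:8666833-8667884, 1052 bases), Jag1 (chr2:137116701-137117651, 951 bases), Notch2 (chr3:98013282-98014192, 911 bases) and Notch1 (chr2:26503416-26504051, 636 bases), and narrow for Dll1 (chr17:15375719-15375794, 76 bases) and Jag2 (chr12:112929627-112929691, 65 bases), against a median of 233 bases in the list. Counting no peak narrower than that median, 8 of 10 genes kept a peak within 1 kb (82.3% of all), Jag2 and Dll1 not.

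Peaks inside the genes were spread unevenly. Notch2 had 9 in its body, of which 8 lay in introns; Notch1 and Jag1 had 6 each, Notch3 had 4, Heyl 3, Hey1 2 and the other four 1 each. The Notch2 body spans 136.8 kb, so it also had the most room. Upstream of Notch1 a further peak at chr2:26516168-26516666 overlapped an exon of another annotated transcript and had its centre 246 bases from that transcript's start. Upstream of Hes1 a peak at chr16:30063644-30064420 overlapped an exon beside another annotated start, and 3 more lay downstream of the gene. The list gives no value per sample, so no group can be compared.

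**Figure D5:**
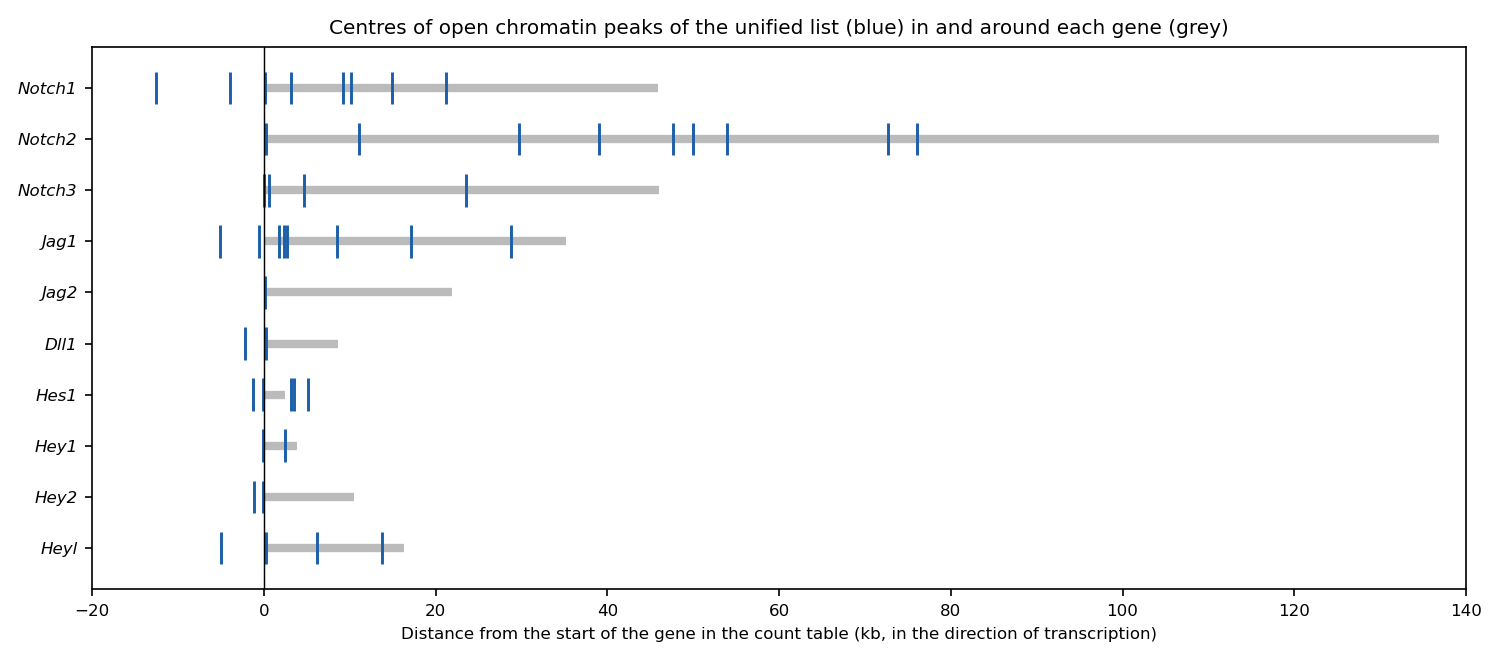
Centres of peaks of the merged list (blue marks) along each gene (grey bar), as distance in kb from the start of the gene in the count table, in the direction of transcription; marks have no width to scale. All 10 genes have a mark close to 0, and Notch2 has 8 further marks within its body.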

How the data were processed

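RNA-seq and ATAC-seq of sorted mouse cells were measured. In both RNA-seq tables the authors deposited unnormalized read counts for each gene, and the deposited peak list holds positions on mm10 with no sample, height or score. The submitters' processing notes name STAR 2.5, featureCounts of Subread 1.5.0-p1, Bowtie 1.2, Picard, SAMtools 1.3.1, bedtools 2.24.0 and MACS2 2.1.1, with no role or order. The gene annotation, the strand setting in counting and the peak threshold are not given in the sources used here. Per the labels' protocols, the fetal libraries came from a non-stranded and the uterine libraries from a stranded kit, so each table was fitted by itself.

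Differences were tested with edgeR 4.0.16 (R 4.3.3), by its quasi-likelihood test (filterByExpr, TMM scaling, robust estimation). Benjamini-Hochberg adjustment ran over all genes tested, 17858 in the fetal and 16195 in the uterine table, with a threshold of 0.05. The 12 fetal libraries shared a single model of 4 group means. Standard errors were obtained by dividing each log2 fold change by the square root of its F statistic. CPM (counts per 1000000) use the TMM-scaled library size, and values per kb use the exon length of GENCODE vM21. Labels do not say whether libraries of a group came from separate animals, so p-values measure the spread between these samples only, which may be technical; pairs of libraries within a group differed beyond sampling noise (chi-square per degree of freedom of 3.60 to 91.0).

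The 10 members, the 45 other pathway genes and the marker lists were chosen with earlier results of these data known. All members were named. In each comparison up to 8 other pathway genes could be named, past the threshold and with a mean of 5 CPM or more in the group with more, and all were named where at most 5 passed. Deviations of same-numbered libraries from their group means correlated between the sexes at E16.5 (r of 0.28, 0.11 and 0.40, all above the limit of 0.1 for pairs); no label ties a number to a litter. At E14.5 the values were 0.07, 0.05 and 0.05, and those between libraries of unlike number were all below 0 (-0.0434 to -0.0073). In data simulated on the comparison of the sexes at E16.5, with 17557 genes, the script recovered 83% of 1.5-fold and 95% of 2-fold changes, with 10 false calls. Changes were given only to genes with a mean above 5 CPM, so these rates do not cover rarer genes such as Dll1, Hey1 and Jag2. For each fold 100 genes were changed, far fewer than the 27.3% of all tested genes called in the real comparison. Libraries were drawn independently of each other. Alternatives were other scaling, no filter, DESeq2 1.42.0, a replicate block, the 2 groups alone and leaving out each library. Promoter windows came from a RefSeq table on GRCm38.p6. Protein sequences were not used here.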

Additional observations from a re-analysis of the deposited data

Results flagged for a closer look

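The XX to XY difference changed between E14.5 and E16.5 for 1 of 10 members, Notch1, by a test of that change itself (edgeR, adjusted over all genes tested). It also changed for 4 of 42 other pathway genes tested (9.52%), all towards XY. Of all tested genes, 4.66% shifted towards XX and 5.36% towards XY, so these counts set the pathway little apart. For Notch1 the difference grew in favour of XX by 0.57 log2 (adjusted p = 0.0028), and the change passed in every alternative run, from 0.47 to 0.62 log2. For Dtx4 it moved by -0.87 log2 (adjusted p = 0.000751), for Neurl1a by -0.44 log2 (adjusted p = 0.00488) and for Lfng by -0.66 log2 (adjusted p = 0.0261), each towards XY. The Lfng change no longer passed without E14.5 XX replicate 3 (adjusted p = 0.0826), E16.5 XX replicate 1 (0.0553) or E16.5 XY replicate 2 (0.0698). For Dner it was -3.45 log2 (adjusted p = 0.000688), on 4 to 9 counts per XX library.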

How the results depend on the processing

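Of 16 calls of members, 13 passed in every alternative run and 3 were lost in some, namely Jag1 and Jag2 at E16.5 and Notch1 in the uterus. Of 760 member log2 fold changes under alternatives, 36 turned in sign, all of them uncalled. With library size as the only scaling, age in XX gave -0.0206 for Jag1 and -0.0046 for Hey1, and the change of the sex difference with age gave 0.0326 for Hes1, which was 0.24 with the replicate block. Leaving out 1 library at a time gave, for age in XX, -0.0119 to 0.0539 for Jag1 and -0.0936 to 0.19 for Hey1, and for age in XY -0.0318 to 0.20 for Heyl. At E14.5 it gave -0.0504 to 0.22 for Hey2, -0.30 to 0.0105 for Hey1, -0.0645 to 0.10 for Jag2 and -0.62 to 0.00727 for Dll1. At E16.5 it gave -0.0537 to 0.0915 for Notch2, -0.0577 to 0.16 for Hey2 and -0.89 to 0.41 for Hes1. For the change between ages it gave -0.46 to 0.86 for Hes1, -0.35 to 0.28 for Dll1 and -0.19 to 0.0875 for Hey2, and for the uterus -0.30 to 0.66 for Hes1.

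Members called at E14.5, none as reported, became 1 without the filter, 3 by DESeq2, 2 with the replicate block, 3 in the 6 libraries alone and 0 to 2 with a library left out. At E16.5 the 5 became 3 in the 6 libraries alone and 3 to 5 with a library left out, and for age in XX the 2 became 5 in the 6 libraries alone (Notch1, Notch2, Notch3, Hes1 and Hey2). For the change between ages the 1 became 1 to 2 with a library left out. Other pathway genes called with a library left out numbered 1 to 6 at E14.5, between 6 and 12 at E16.5, 14 to 19 for age in XX and 3 to 9 for the change between ages; at E16.5 they were 7 in the 6 libraries alone. The cause was not tested.

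The replicate block kept all 5 member calls at E16.5. There same-numbered libraries were all above the limit of 0.1, as was XX replicate 2 with XY replicate 1 (r = 0.108). At E14.5 they were below that limit, and in the uterus not all were above it (r of 0.0018, 0.22 and 0.24). Whether same-numbered libraries are pairs cannot be told from the labels. The block added Notch1 and Notch2 at E14.5 and, for age in XY, Hey1 (-0.58 log2, adjusted p = 0.0494). Depth limits Dll1 most, with 15 to 78 counts per library.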
